A study of Mus musculus with 12 samples.

Results

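The genes encoding neuronal nicotinic acetylcholine receptor subunits were followed in sorted mouse sensory neurons from 2 sets of spinal levels. The members were the 10 genes Chrna3, Chrna4, Chrna5, Chrna6, Chrna7, Chrna9, Chrna10, Chrnb2, Chrnb3 and Chrnb4, chosen by symbol out of 41388 genes in the deposited tables. RNA was sequenced from dorsal root ganglia, the ganglia that hold the cell bodies of sensory neurons, of adult C57BL/6 mice aged 3 months. Ganglia of L3 to L5 (L345) or of L6 and S1 (L6S1) were pooled within a sex, dissociated and sorted for EGFP. This gave 4 groups of 3 libraries, lettered A to C in male L345, B to D in female L345, and A to C in male L6S1 and in female L6S1.

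All 4 groups shared the genotype RetFloxedEGFP with Scn10a<tm2(cre)Jnw>. The animals were heterozygous at the Ret locus, and EGFP appeared only where Cre made from the NaV1.8 gene (Scn10a) had cut the floxed Ret copy, so the sorted cells of all groups carried a cut Ret copy and no uncut control was in the set. For female L345 D and male L6S1 C the genotype label names only the Ret allele, and for female L6S1 B and C only the Cre allele. The source name gives both for all 12 libraries. Each library came from a pool of 12 to 32 ganglia from 2 to 8 mice. For male L345 C the labels conflict, giving both 5 and 3 mice. The labels do not say whether pools of different levels came from the same mice.

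Nicotinic receptors are ion channels built of several subunits that open when acetylcholine binds. Alpha subunits carry the main part of the binding site, and most partner with beta subunits, while Chrna7 can form a channel alone. The pairing of Chrna3 with Chrnb4 is the classical receptor of autonomic ganglia, Chrna4 with Chrnb2 that of the brain, and Chrna6 with Chrnb3 occurs in catecholaminergic and sensory neurons.

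Of the members, 5 lay in 2 tight gene clusters (GRCm38, coordinates of the deposited tables). On chromosome 9, Chrna5 (ENSMUSG00000035594, 54980880 to 55007779, plus strand), Chrna3 (ENSMUSG00000032303, 55011343 to 55026559, minus strand) and Chrnb4 (ENSMUSG00000035200, 55028156 to 55048544, minus strand) followed each other with gaps of 3563 and 1596 bases. On chromosome 8, Chrnb3 (ENSMUSG00000031492, 27368711 to 27399729, plus strand) and Chrna6 (ENSMUSG00000031491, 27403214 to 27413944, minus strand) lay 3484 bases apart, tail to tail. No member overlapped another gene of the tables.

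The 250 bases before the annotated starts of the chromosome 9 genes are shown because Chrna3 and Chrnb4 moved together in these libraries while their neighbour Chrna5 was hardly counted. The sequences are from RefSeq (GRCm38.p6), 5′ to 3′ on the strand of the gene, with capitals marking the GC box GGGCGG or its reverse complement. The windows are chr9:55026563-55026812 (minus strand) for Chrna3, chr9:55048545-55048794 (minus strand) for Chrnb4, and chr9:54980630-54980879 and chr9:54981238-54981487 (both plus strand) for the first and the second annotated start of Chrna5.
Chrna3: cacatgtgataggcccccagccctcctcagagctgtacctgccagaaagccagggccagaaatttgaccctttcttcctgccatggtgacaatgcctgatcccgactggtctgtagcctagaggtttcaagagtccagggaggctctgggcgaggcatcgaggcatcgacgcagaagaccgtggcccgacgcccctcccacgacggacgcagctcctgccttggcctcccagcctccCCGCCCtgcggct
Chrnb4: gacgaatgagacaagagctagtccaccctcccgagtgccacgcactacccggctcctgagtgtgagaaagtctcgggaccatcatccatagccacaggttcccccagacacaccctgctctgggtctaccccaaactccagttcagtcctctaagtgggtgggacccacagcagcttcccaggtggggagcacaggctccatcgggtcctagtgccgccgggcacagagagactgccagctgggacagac
Chrna5, first start: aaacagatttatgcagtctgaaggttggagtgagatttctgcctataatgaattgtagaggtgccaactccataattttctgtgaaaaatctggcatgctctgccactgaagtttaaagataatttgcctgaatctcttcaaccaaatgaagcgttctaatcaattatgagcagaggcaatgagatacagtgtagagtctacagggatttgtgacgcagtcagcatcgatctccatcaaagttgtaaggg
Chrna5, second start: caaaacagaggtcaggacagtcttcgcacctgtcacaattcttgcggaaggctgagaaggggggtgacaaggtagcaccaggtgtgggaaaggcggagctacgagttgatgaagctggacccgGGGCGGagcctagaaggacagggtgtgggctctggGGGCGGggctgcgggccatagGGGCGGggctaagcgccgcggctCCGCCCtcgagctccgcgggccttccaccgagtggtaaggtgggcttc
The GC box was matched 1 time before Chrna3, 0 times before Chrnb4, 0 times before the first and 4 times before the second start of Chrna5. Of 32851 promoter windows of the same length, 32.7% held it on either strand. G and C made up 63.2% of the bases before Chrna3, 61.2% before Chrnb4, and 40% and 65.2% before the starts of Chrna5, against a median of 52.4% over all windows. The E-box CANNTG, which reads the same on both strands as a pattern, occurred 2 times before Chrna3 and 2 times before Chrnb4, and 66.2% of all windows held it. TATAAA and CCAAT, searched on both strands and found in 12.4% and 33.9% of all windows, were in none of the 9 member windows. Windows were found for 8 of the 10 members. Chrna6 and Chrnb3 were not matched.

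Total counts ranged from 16176436 to 26694404 per library, so that 3 counts, taken as the floor of detection, were worth 0.112 to 0.185 CPM (counts scaled to the library size). The floor covers counting error only. The sorted cells carried the markers of sensory neurons at both levels, and none of 9 such genes passed the test between levels. Among them, Scn10a and Ret are the loci on which the EGFP sort rests, so their presence was given in advance. Both also carry an engineered allele in these animals. Isl1 was at 278 ± 19.1 CPM (SD, n = 6) at L345 and 282 ± 31.8 at L6S1. Scn11a and Scn10a, which encode sodium channels of nociceptors, had the largest differences of the 9. Scn11a was at 671 ± 123 and 492 ± 69.8 CPM (log2 fold -0.45 ± 0.147, SE, edgeR adjusted p = 0.0935), and Scn10a at 573 ± 96.0 and 429 ± 66.5 CPM (-0.42 ± 0.143, SE, edgeR adjusted p = 0.101). Female L345 D, female L6S1 B and C and male L6S1 C were submitted later than the other 8 libraries, female L6S1 C stood apart by immune and fibroblast transcripts, and female L6S1 B and C by low Apoe, a glial transcript, with values given below.

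Of the 10 members, 7 had enough counts to be tested and 3 did not. Chrna6 was the member with the highest level per length. Its RPKM (CPM per kilobase of exon) was 81.0 ± 9.65 at L345 and 88.0 ± 15.6 at L6S1 (SD, n = 6 each), and its range overlapped that of no other member. Chrnb2 at 9.91 ± 1.28 RPKM and Chrnb3 at 6.84 ± 1.04 followed at L345, in that order in 6 of 6 libraries although their ranges overlapped. Below them lay Chrnb4 at 2.02 ± 0.453, Chrna3 at 1.76 ± 0.485, Chrna4 at 1.50 ± 0.218 and Chrna7 at 1.13 ± 0.470 RPKM, each overlapping the next. Orders, ratios and shares across genes rest on the annotated exon lengths, from 2091 bases for Chrna7 to 5384 for Chrnb2. How evenly the amplified RNA covered the transcripts was not examined.

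At L6S1 the order of the means changed. Chrna3 came next after Chrna6 at 14.7 ± 8.27 RPKM (SD, n = 6), then Chrnb4 at 10.4 ± 4.71, Chrnb3 at 8.16 ± 1.60 and Chrnb2 at 8.12 ± 1.68, all with overlapping ranges. Chrna3 was above Chrnb4 in 6 of 6 libraries, Chrnb4 above Chrnb3 in 3 of 6 and Chrnb3 above Chrnb2 in 2 of 6. In male L6S1 A, Chrnb2 at 9.43 and Chrnb3 at 6.60 RPKM were above Chrna3 at 5.75. Chrna4 at 1.63 ± 0.589 and Chrna7 at 0.750 ± 0.495 RPKM remained the lowest of the tested members.

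**Figure D1:**
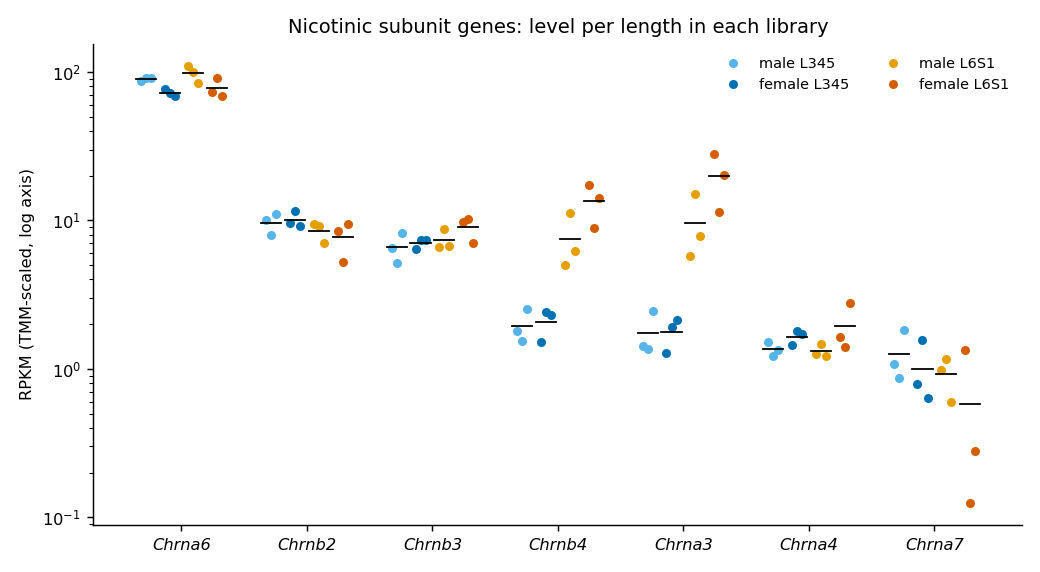
Level per length (RPKM on a log axis) of the 7 tested subunit genes in each of the 12 libraries, grouped by sex and spinal level, with a line at each group mean. Chrna6 lies above all other members, and Chrna3 and Chrnb4 are the members whose L6S1 libraries all lie above their L345 libraries.

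Of the 7 tested members, 2 rose from L345 to L6S1 and none fell, by the edgeR quasi-likelihood test at an adjusted p under 0.05 over 15281 genes. The same rule called 1.45% of all tested genes higher and 0.877% lower, 2.33% in all. Only Chrna3 and Chrnb4 among the 7 had L6S1 libraries that did not overlap with the L345 libraries, which held for 2.02% of all tested genes in the higher direction. The 222 genes called higher and 134 called lower split as 62.4% higher, against 75.6% (412 and 133 genes) with upper-quartile scaling and 73.6% (719 and 258) with length and GC offsets. Over the 23 alternatives the share ran from 42.3% to 88.0%, and lower calls outnumbered higher ones in 4 of them: the first submission alone (211 higher, 288 lower), the fit without female L6S1 A (1735 and 2296), limma-voom (1502 and 1766) and the replicate block (960 and 1025).

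Chrna3, the alpha subunit of the ganglionic receptor, rose 7.79-fold. It was counted at 4.44, 4.26 and 7.72 CPM in male L345 A, B and C and at 3.97, 5.98 and 6.64 CPM in female L345 B, C and D. At L6S1 it reached 17.9, 47.1 and 24.5 CPM in male A, B and C and 87.3, 35.7 and 62.7 CPM in female A, B and C. Every L6S1 library lay above every L345 library, the lowest of them 2.32 times the highest at L345. The log2 fold was 2.96 ± 0.292 (SE; 95% interval 2.33 to 3.59; edgeR adjusted p = 0.000105), and 6 of 6 L6S1 libraries were above the L345 mean of their sex. In RNA from pooled cells, a larger share of cells with the transcript and more transcript per cell cannot be told apart.

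Chrnb4, the beta subunit that pairs with Chrna3, rose 4.94-fold. It was counted at 6.23, 5.38 and 8.85 CPM in male L345 A, B and C and at 5.32, 8.36 and 8.09 CPM in female L345 B, C and D. At L6S1 the values were 17.4, 38.8 and 21.6 CPM in male A, B and C and 60.3, 31.1 and 49.2 CPM in female A, B and C. The groups did not overlap here either, with the lowest L6S1 library at 1.97 times the highest L345 library. The log2 fold was 2.31 ± 0.238 (SE; 95% interval 1.796 to 2.82; edgeR adjusted p = 0.000112), in 6 of 6 L6S1 libraries.

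The L6S1 libraries spread widely in both genes and in the same order. Chrna3 spanned 4.86-fold and Chrnb4 3.47-fold between the lowest library, male L6S1 A, and the highest, female L6S1 A, and all 6 libraries held the same rank in both genes. On the log2 scale the SD over the 6 libraries was 0.850 for Chrna3 and 0.690 for Chrnb4, but 0.166 for the ratio of Chrna3 to Chrnb4 within a library.

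That ratio itself shifted. Per kilobase, Chrna3 was below Chrnb4 in all 6 L345 libraries, at 0.796 to 0.974 times its level, and above it in all 6 L6S1 libraries, at 1.15 to 1.62 times. The mean log2 ratio was -0.21 ± 0.117 at L345 and 0.42 ± 0.166 at L6S1 (SD, n = 6 each), a difference of 0.63 (exact two-sided permutation test over 924 splits, p = 0.00216, adjusted over 3 ratios p = 0.00216). This p is the smallest the 924 splits can give. The ratio of Chrnb4 to Chrnb2, the other common beta subunit, went from 0.159 to 0.252 at L345 to between 0.529 and 2.03 at L6S1, a log2 difference of 2.57 (exact permutation p = 0.00216, adjusted p = 0.00216). This second ratio mostly restates the rise of Chrnb4 and is no separate evidence for it. The third planned ratio, of Chrna5 to Chrna3, rests on at most 1 count of Chrna5 per library and is not given.

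Chrna3 and Chrnb4 passed the test in each sex taken alone, and 3 of these 4 calls were lost with a replicate block. In males the log2 fold was 2.44 ± 0.407 for Chrna3 (SE, edgeR adjusted p = 0.0231) and 1.92 ± 0.334 for Chrnb4 (edgeR adjusted p = 0.0270), where 0.183% of all genes were called higher. In females it was 3.48 ± 0.420 for Chrna3 (edgeR adjusted p = 0.00171) and 2.69 ± 0.340 for Chrnb4 (edgeR adjusted p = 0.00211), where 0.308% were called higher. The call in males was lost for Chrna3 without male L345 A, male L345 B, male L6S1 B or male L6S1 C (adjusted p 0.0567 to 0.194). For Chrnb4 it was lost without any of those or without male L345 C or female L345 D (adjusted p 0.0543 to 0.209). A block on the replicate letter ended both calls in males (edgeR adjusted p = 0.107 for Chrna3 and 0.0900 for Chrnb4) and that of Chrna3 in females (0.0527), and testing without the filter on low counts ended that of Chrna3 in males (0.104).

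The size of the rise was not shown to differ between the sexes. The female level effect exceeded the male one by 1.04 ± 0.551 on the log2 scale for Chrna3 (SE, 95% interval -0.14 to 2.23) and 0.77 ± 0.458 for Chrnb4 (edgeR adjusted p = 0.871 for both). None of the 7 members was called for this difference, at an unadjusted p under 0.05, or by DESeq2 or limma-voom. Over all genes 0% were called (0 by edgeR, with 714 at an unadjusted p under 0.05, and 2 each by DESeq2 and limma-voom).

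**Figure D2:**
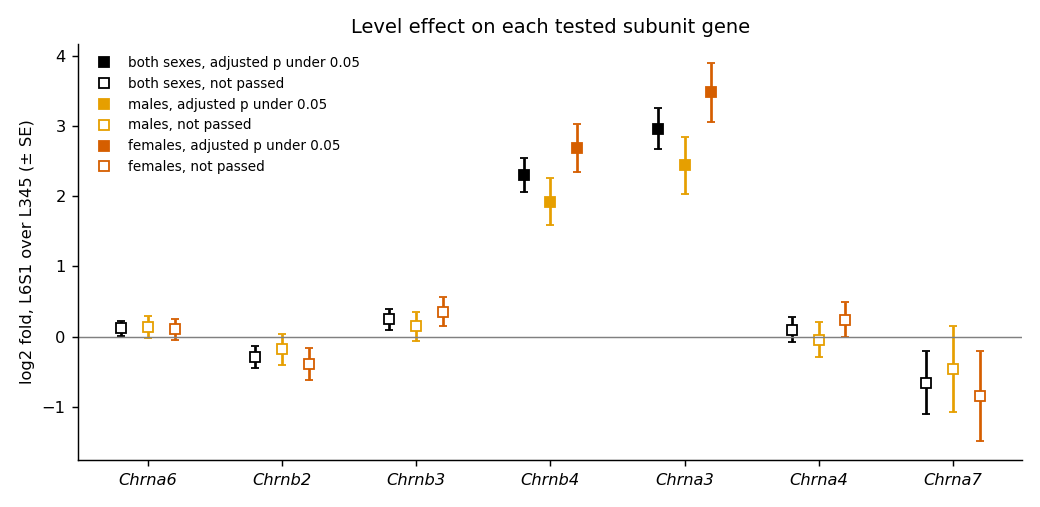
Log2 fold of L6S1 over L345 with its standard error for the 7 tested subunit genes, in both sexes together, in males and in females; filled squares passed the test. Chrna3 and Chrnb4 lie between 1.92 and 3.48, and the other 5 genes have open squares in all 3 comparisons.

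The other 5 tested members did not pass the test between levels. Chrna6, which forms receptors with Chrnb3 and Chrnb2, was at 251, 266 and 263 CPM in male L345, 222, 210 and 201 in female L345, 319, 290 and 245 in male L6S1 and 213, 265 and 201 in female L6S1. The ranges of both levels overlapped, and the log2 fold was 0.12 ± 0.110 (SE, 95% interval -0.12 to 0.35, edgeR adjusted p = 0.503). Its cluster partner Chrnb3, an accessory subunit, ranged from 23.8 to 37.7 CPM (median 31.8) at L345 and from 30.3 to 46.6 (median 36.1) at L6S1, with a log2 fold of 0.25 ± 0.149 (95% interval -0.07 to 0.57, edgeR adjusted p = 0.290). The 2 genes of the chromosome 8 cluster thus had intervals that reach no further than 0.57, whereas those of Chrna3 and Chrnb4 began at 2.33 and 1.796.

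Chrnb2, the main beta subunit of the brain, ranged from 42.8 to 62.1 CPM (median 53.2) at L345 and from 28.2 to 50.8 (median 47.5) at L6S1. All 6 L6S1 libraries were below the L345 mean of their sex, but the ranges overlapped and the log2 fold of -0.29 ± 0.157 did not pass (SE, 95% interval -0.62 to 0.05, edgeR adjusted p = 0.250). Chrna4, its usual partner, ranged from 6.04 to 8.87 CPM (median 7.31) at L345 and from 6.02 to 13.8 (median 7.07) at L6S1. The log2 fold was 0.10 ± 0.177 (SE, 95% interval -0.28 to 0.47, edgeR adjusted p = 0.741), and the highest library, female L6S1 C, stood apart from the rest.

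Chrna7, whose product forms channels alone, was the least counted of the tested members. It was at 2.26, 1.83 and 3.82 CPM in male L345 A, B and C, 1.65, 3.28 and 1.34 in female L345 B, C and D, and 2.06, 2.45 and 1.24 in male L6S1 A, B and C. In female L6S1 the 3 libraries disagreed, with 2.81 CPM in A, 0.261 in B (6 counts) and 0.587 in C (14 counts). The log2 fold was -0.66 ± 0.444 (SE, 95% interval -1.61 to 0.30, edgeR adjusted p = 0.345). The value was -0.03 without female L6S1 B and C, and -1.38 without female L6S1 A, where it passed the test (edgeR adjusted p = 0.0122). With the submission term it was -0.34 ± 0.341 (SE, edgeR adjusted p = 0.606), and in the first submission alone -0.0361.

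The 3 remaining members were too rarely counted to be tested. Chrna5, an accessory subunit that can join receptors of Chrna3 and Chrnb4, had 1 count each in female L345 D, female L6S1 A and female L6S1 B and 0 in the other 9 libraries, all under the floor of 3 counts. In female L6S1 A this 1 count stood beside 1430 counts of Chrna3 and 988 of Chrnb4. Chrna10 had 0 to 5 counts per library, 20 in all. Chrna9, which combines with Chrna10 in hair cells of the ear, had 0 counts in all 12 libraries, which allows up to 0.112 to 0.185 CPM per library. Differences between levels were not detectable at this depth for these genes.

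As shares of the summed RPKM of all 10 members, Chrna6 made up 77.6 ± 3.67% at L345 and 66.8 ± 10.4% at L6S1 (SD, n = 6 each). Chrna3 went from 1.697 ± 0.466% to 11.1 ± 5.97%, and Chrnb4 from 1.95 ± 0.472% to 7.90 ± 3.42%. In female L6S1 A, the library with most Chrna3, Chrna6 held 52.4%, Chrna3 20.0% and Chrnb4 12.4%. In male L6S1 A, the library with least of the L6S1 set, the shares were 79.1%, 4.13% and 3.59%. A share falls when another member rises, and the level of Chrna6 itself did not pass the test.

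**Figure D3:**
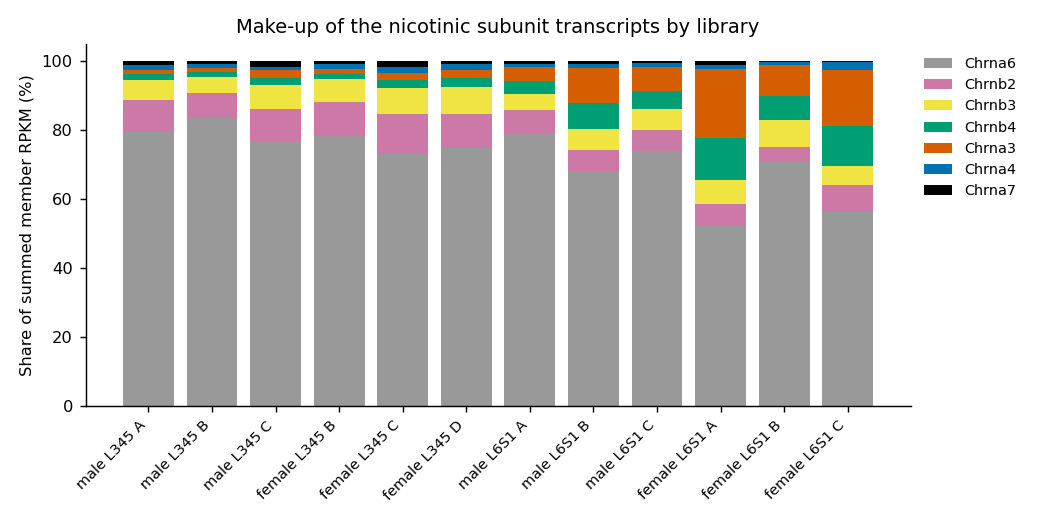
Share of each of the 7 tested subunit genes in the summed RPKM of the 10 members, in percent, for each library as a stacked bar. Chrna6 is the largest piece in all 12 bars, and the Chrna3 and Chrnb4 pieces are wider in the 6 L6S1 bars than in the 6 L345 bars.

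No member was called between females and males over both levels (edgeR, 0.0589% of all genes called; DESeq2 and limma-voom called none of the 7 either). Without female L6S1 A, Chrna7 passed for sex over both levels (female minus male log2 fold -1.25 ± 0.347 against -0.53 ± 0.443 with all libraries, SE, edgeR adjusted p = 0.0478 and 0.823). At L6S1 its female minus male log2 fold was then -2.16 ± 0.560 (SE, edgeR adjusted p = 0.0216), against -0.72 ± 0.648 with all libraries. Between levels in females it was then -2.28 ± 0.558 (SE, edgeR adjusted p = 0.0104), against -0.85 ± 0.645. Female L6S1 then held only B and C, both submitted later and low in Apoe. The part of these traits in the Chrna7 calls was not tested. With all libraries and the submission term, the level effect in females was -0.64 ± 0.479 (SE, edgeR adjusted p = 0.456). In the main fit over both levels, an unadjusted p under 0.05 was found for 2 members. Chrna6 had a female minus male log2 fold of -0.32 ± 0.110 (SE, edgeR adjusted p = 0.764), with female L345 libraries at 201 to 222 CPM against 251 to 266 in male L345, and with overlapping ranges at L6S1. For Chrna4 it was 0.42 ± 0.177 (SE, edgeR adjusted p = 0.764). At L6S1, where 0.072% of genes were called, the female minus male log2 fold was 1.05 ± 0.381 for Chrna3 and 0.85 ± 0.319 for Chrnb4 (SE, edgeR adjusted p = 0.2986 and 0.3003), with overlapping ranges. Chrna4 was the third member with an unadjusted p under 0.05 at L6S1, with 0.57 ± 0.250 (SE, edgeR adjusted p = 0.342).

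The rise of Chrna3 and Chrnb4 was also read in the libraries of the first submission alone. In those 8 libraries, with 1 of female L6S1, whose spread was taken to be that of the other groups, the log2 fold was 3.33 ± 0.385 for Chrna3 (SE, edgeR adjusted p = 0.0139) and 2.57 ± 0.295 for Chrnb4 (SE, edgeR adjusted p = 0.00575). The later submission holds 1 L345 library, and was not tested on its own. In it, Chrna3 was at 6.64 CPM in female L345 D and at 24.5, 35.7 and 62.7 CPM in male L6S1 C, female L6S1 B and female L6S1 C.

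Markers of other cells were read beside these values, since Chrna3 and Chrnb4 are also made by autonomic neurons. None of 9 autonomic marker genes had enough counts to be tested. Phox2a, a transcription factor of autonomic neurons, was at 0 in all 12 libraries. The summed level of the 9 was 0.0375 to 0.334 CPM at L345 and 0.122 to 1.72 at L6S1. Of the female L6S1 libraries, B reached 1.35 CPM and C 1.72, while the sum was at most 0.339 in the other libraries. The largest parts of these 2 sums were Gata3 at 0.869 CPM in B, and Gata2 at 1.01 and Gata3 at 0.419 CPM in C. Hand2 had 1 count in B and 1 in C. In the 4 L6S1 libraries other than female B and C, Chrna3 was between 17.9 and 87.3 CPM. The fit without female L6S1 B and C leaves only A in female L6S1. In that fit the log2 fold was 3.20 ± 0.278 for Chrna3 and 2.48 ± 0.229 for Chrnb4 (SE). The part of autonomic neurons in the rise was not tested.

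Immune transcripts moved with the level. Of 7 immune marker genes 3 were tested and 2 rose, C1qb and Cd74, with a summed level of 2.27 to 3.46 CPM at L345 and 6.32 to 12.6 in 5 L6S1 libraries, and 157 in female L6S1 C. Fibroblast markers summed to 70.9 CPM in female L6S1 C and to at most 15.1 elsewhere, with none of 5 tested passing. Without female L6S1 C the log2 fold was 2.96 ± 0.311 for Chrna3 (SE, edgeR adjusted p = 0.000381) and 2.29 ± 0.247 for Chrnb4 (SE, edgeR adjusted p = 0.000266). Of the remaining marker lists, 0 of 9 glial, 0 of 4 endothelial and mural, 1 of 2 skeletal muscle (Acta1, higher) and 0 of 2 red blood cell genes passed. The 9 glial genes summed to 942 CPM in female L6S1 B and 1137 in C, below all L345 libraries (1423 to 1906 CPM). Apoe, a lipid carrier made by satellite glia, was at 228 CPM in B and 327 in C, against 891 to 1469 in the other 10 libraries. Apoe had the highest mean of the 9 genes, so the sum mostly follows it. The sum does not show that all glial transcripts were low in B and C. Between levels, S100b and Fabp7 had log2 folds of 0.75 ± 0.267 and 0.52 ± 0.159 (SE), while those of all other genes of the list were negative. The part of immune, muscle and glial transcripts in the rise was not tested.

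The genes around Chrna3 were read beside it. Of 14 other tested genes that start within 500 kb of the start of Chrna3, 1 rose and none fell. Over all tested genes 1.45% were called higher and 0.877% lower. The median log2 fold of the 14 was 0.07, against -0.06 over all tested genes. Psma4, a proteasome subunit 75.8 kb from the start of Chrna3 on the far side of Chrna5, was at 150 ± 13.3 CPM at L345 and 206 ± 39.4 at L6S1 (SD, n = 6; log2 fold 0.46 ± 0.127 SE, edgeR adjusted p = 0.0661). Hykk, Ireb2 and Ube2q2, the other nearest ones, had log2 folds of 0.46 ± 0.217, -0.49 ± 0.232 and -0.40 ± 0.210 (SE) and did not pass. Crabp1, which encodes a cytosolic retinoic acid binding protein and starts 262 kb away, rose: it was at 1.92 ± 0.578 CPM at L345 and at 4.37 ± 2.59 CPM at L6S1 (SD, n = 6; log2 fold 0.98 ± 0.221 SE, edgeR adjusted p = 0.0368). That call was lost in 10 of 23 alternatives (adjusted p up to 0.120), among them the fits without female L345 B or C, female L6S1 C, male L345 A, B or C, or male L6S1 A or B.

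The other tested neighbours were Cib2, Idh3a, Acsbg1, Dnaja4, Wdr61, Fbxo22, Nrg4, Tmem266 and Etfa. Their log2 folds lay between -0.40 for Tmem266 and 0.54 for Wdr61, and none passed.

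**Figure D4:**
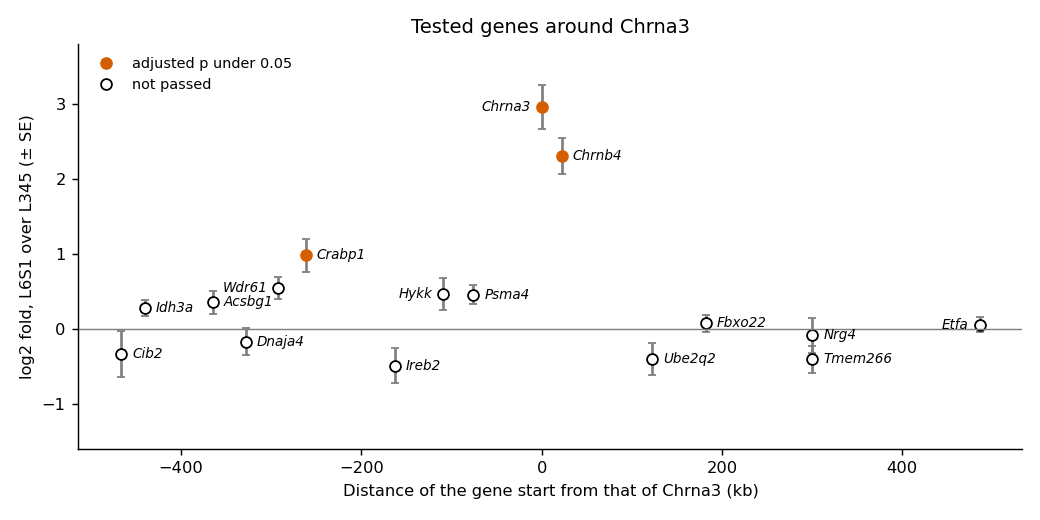
Log2 fold of L6S1 over L345 with its standard error for the 16 tested genes that start within 500 kb of Chrna3, by the distance of their start from that of Chrna3 in kb. Chrna3 and Chrnb4 are at 2.96 and 2.31, and the 14 others lie between -0.49 and 0.98.

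The remaining nicotinic genes and the acetylcholine pathway did not follow Chrna3 and Chrnb4. Of 6 other nicotinic subunit genes, mostly those of muscle, 3 were tested and none passed (median log2 fold 0.27). Chrnb1, the muscle beta subunit, had the largest change of them, from 1.94 ± 0.460 to 0.934 ± 0.347 CPM (SD, n = 6; log2 fold -1.06 ± 0.297 SE, edgeR adjusted p = 0.0684), and Chrna1 and Chrne had log2 folds of 0.27 ± 0.231 and 0.51 ± 0.361 (SE). Of 10 genes of acetylcholine synthesis, transport and breakdown, 8 were tested and none passed (median 0.02). Acly, which supplies acetyl-CoA, had a log2 fold of 0.08 ± 0.108, Slc44a1, a choline transporter, -0.16 ± 0.160, Crat, a carnitine acetyltransferase, -0.14 ± 0.153 and Ache, which breaks acetylcholine down, 0.21 ± 0.280 (SE). Chat, the enzyme that makes acetylcholine, was at 0 counts in 11 libraries and had 6 counts in female L6S1 B.

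Among 16 genes known to assist or modulate nicotinic receptors, 15 were tested, 1 fell and none rose (median log2 fold -0.16). Lypd1, a membrane-anchored Ly6 protein that modulates nicotinic receptors, fell from 3.59 ± 1.46 to 1.82 ± 1.07 CPM (SD, n = 6; log2 fold -1.11 ± 0.275 SE, edgeR adjusted p = 0.0498). The test was no longer passed in 12 of 23 alternatives (adjusted p up to 0.229), including 10 of the 12 fits that leave out 1 library, where only leaving out D of female L345 or A of female L6S1 kept it. The most abundant others, Nrn1, Canx, a chaperone of the endoplasmic reticulum, Rer1, which retains unassembled subunits there, and Lynx1, a Ly6 modulator, had log2 folds of 0.06 ± 0.120, -0.22 ± 0.129, -0.16 ± 0.167 and 0.12 ± 0.175 (SE) and did not pass.

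The genes whose profile over the 12 libraries was most like that of Chrna3 were found by the root mean square difference of log2 CPM, each gene centred on its own mean, among 11666 other genes of at least 2 CPM. Chrnb4 was nearest to Chrna3, at 0.340, followed by Qpct at 0.492, Esr1 at 0.620, Mrap2 at 0.6252 and Olfm2 at 0.693, against a median of 1.63 over all genes compared. For Chrnb4 the nearest were Chrna3 at 0.340, Esr1 at 0.380, Mrap2 at 0.393, Qpct at 0.394 and Dcn at 0.448, against a median of 1.30. Qpct, glutaminyl cyclase, went from 5.91 ± 1.18 to 34.0 ± 10.5 CPM, and Esr1, the estrogen receptor alpha, from 6.57 ± 2.22 to 26.4 ± 8.65 CPM (SD, n = 6 each). The likeness follows mostly the step between levels that all of these genes share, and it is a description with no test.

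**Figure D5:**
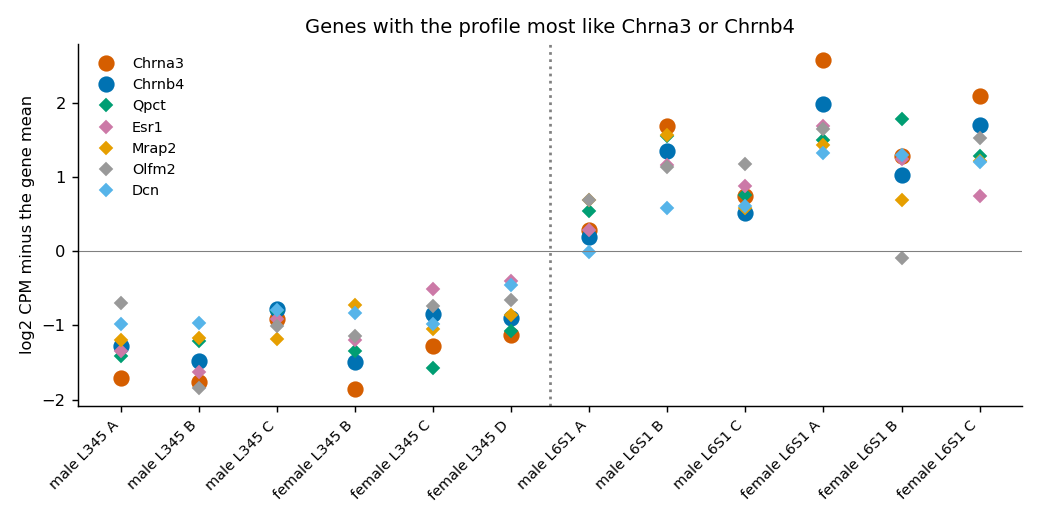
Log2 CPM minus the mean of the gene over 12 libraries, for Chrna3, Chrnb4 and the 5 other genes nearest to either of them, with the L345 libraries left and the L6S1 libraries right of the dotted line. Chrna3 is the lower of the pair with Chrnb4 in each L345 library and the higher in each L6S1 library. Centring on the mean of each gene gives this order to the gene with the larger fold.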

How the data were processed

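Per the labels' protocols, 10 ng of RNA from EGFP-sorted cells was amplified, with 12 PCR cycles for the library. The submitters' processing notes name Subread, featureCounts 1.4.5 and the build GRCm38.p2. The strand setting, annotation release and Subread version were not given in the sources used here. For each gene the authors deposited counts, CPM and RPKM. Only the deposited counts, all whole, entered tests. The deposited CPM and RPKM, which follow from count, library total and gene length, were not used. CPM and RPKM in the text were computed from the counts with TMM scaling.

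Symbols for 40254 of 41388 gene identifiers came from GENCODE M21. Genes passing filterByExpr by group (15281) were fitted in edgeR 4.0.16 (R 4.3.3, robust quasi-likelihood, 1 mean per group, 8 residual degrees of freedom) and p-values were adjusted by Benjamini-Hochberg over all of them. SE is the log2 fold over the root of F, and intervals use the fitted degrees of freedom. Ratios of counts per kilobase used a pseudocount of 0.5. Libraries are separate pools, and p-values measure the spread between pools. The edgeR code was tested on simulated data.

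Named genes are all members; of each of 3 gene lists (other nicotinic subunits, acetylcholine pathway, receptor partners) the called genes and up to 4 more by level; tested genes starting within 500 kb of Chrna3; and the 5 genes most alike to Chrna3 and to Chrnb4. C1qb, Cd74, Acta1, Apoe, the other named markers and Chat were named from the lists after their values were seen. 1 marker gene of the autonomic list is not reported here and was left out of its sum. Members and lists were chosen with earlier results of these data known. Alternatives were DESeq2 1.42.0, limma-voom 3.58.1 with quality weights, scaling by upper quartile or RLE, no filter, a filter of 1 CPM in 6 libraries, a submission term, the first submission alone, leaving out female L6S1 B and C, a replicate block, offsets for length and GC, and each library left out in turn.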

Additional observations from a re-analysis of the deposited data

Results flagged for a closer look

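In each level the 6 libraries were examined for 1 lying far from the others, in the 7 tested members, which makes 14 sets of values. Chance marks about 1 in 20 such sets. It marked 1 here: Chrna4 in female L6S1 C was at 13.8 CPM, while the other 5 L6S1 libraries lay between 6.02 and 8.12 CPM, a gap of 0.730 of the whole range. The same library held the immune and fibroblast transcripts given above (Cd74 at 137 CPM), and their part in its Chrna4 level was not tested.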

How the results depend on the processing

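Chrna3 and Chrnb4 were called between levels in all 23 alternatives (log2 folds 2.72 to 3.33 and 2.10 to 2.57). The number of members called was 2 in each but the fit without female L6S1 A, where Chrna7 made it 3. The 356 genes called between levels became 545 with upper-quartile scaling, 1518 with DESeq2, 3268 with limma-voom, 841 without the filter, 125 with the submission term, 137 without female L6S1 B and C, 977 with length and GC offsets, and 80 to 4031 with 1 library left out (4031 without female L6S1 A). The cause was not tested. The log2 differences of the ratios lay between 0.58 and 0.68 (Chrna3 to Chrnb4) and between 2.36 and 2.81 (Chrnb4 to Chrnb2).

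Replicate letters were not taken to pair libraries, since the labels give letters only. Deviations of libraries with 1 letter correlated from -0.306 to 0.459, and all pairs of letter B correlated positively (0.202 to 0.459). These correlations do not settle whether libraries with 1 letter share an origin. With a replicate block, in which female L345 D is fitted exactly because its letter occurs 1 time, 1985 genes and 2 members were called. The block gave adjusted p = 0.107 for Chrna3 and 0.0900 for Chrnb4 in males, and 0.0527 for Chrna3 in females. Without the filter, Chrna3 in males had adjusted p = 0.104.

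Values that did not pass and turned sign were these log2 values. Without female L6S1 B and C they were -0.0324 for Chrna4 between levels (-0.0115 in females), 0.42 for Chrna7 in females, 0.11 and 0.56 for its sex effect over both levels and at L6S1, 0.90 for its interaction, and 0.0368 and 0.00131 for the sex effects of Chrnb2. The sex effect of Chrnb2 was 0.00700 with upper-quartile scaling, 0.0539 with the submission term and 0.00699 with the replicate block, and the interaction of Chrna6 was 0.0494 with upper-quartile scaling. With 1 library left out the ranges that crossed 0 were -0.0727 to 0.196 for Chrna4 between levels (-0.129 to 0.0404 in males, -0.0966 to 0.442 in females), -0.00683 to 0.328 for Chrnb3 in males, -0.0216 to 0.206 for Chrna6 in females, -0.114 to 0.0740 and -0.294 to 0.0815 for Chrnb2 by sex over both levels and at L6S1, and for the interactions -0.0477 to 0.491 (Chrna4), -0.153 to 0.0742 (Chrna6), -1.82 to 0.124 (Chrna7) and -0.361 to 0.0150 (Chrnb2).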
